A study of Mus musculus with 19 samples.

Results

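The 44 genes described here carry out DNA replication, mitosis and the cyclin-driven steps that link them. They were taken by mouse symbol for these known roles, and all 44 were found among the 33919 gene identifiers of the deposited table. They were followed across 19 RNA-seq libraries of flow-sorted Kupffer cells, the macrophages that live in the sinusoids of the liver, from wild-type female mice of the C57BL/6 strain. Chow_EmKCs (n = 6) were CLEC2+ TIMD4+ cells of mice on chow. MCD_EmKCs (n = 6) passed the same gate in mice given MCD, a diet lacking methionine and choline that causes steatohepatitis, over 4 weeks. MCD_MoKCs (n = 7) were CLEC2+ TIMD4- cells after the MCD diet. EmKCs stands for Kupffer cells of embryonic origin and MoKCs for those that arose from blood monocytes, and the sources tie origin to this gate, not to a lineage tracer. No MoKCs library of chow-fed mice was analysed here, so MCD_MoKCs against Chow_EmKCs changes diet and subset together. No source gives the ages of the mice, nor is it said that the libraries came from separate animals, so p-values measure the spread between these samples.

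Messages of the replication and mitosis machinery are made mainly in cells that are dividing. D-type cyclins with CDK4 and CDK6 free E2F factors in G1, which switch on replication genes such as the MCM helicase subunits. B-MYB and FOXM1, with the MuvB complex, then switch on mitotic genes through a promoter element called the CHR, and in resting cells the DREAM complex holds both waves down. Resident Kupffer cells keep their number by dividing in place, and monocytes that settle in an emptied niche also divide before they take on a resident state.

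Total reads were between 11642240 and 30983487 per library, and between 14643 and 16847 genes were detected. Values are normalised reads, meaning reads of a gene divided by 1 size factor for its library. All 44 genes passed the filter of 10 or more normalised reads in 6 or more libraries, which left 14875 genes for testing. Each library had at least 10 normalised reads for 39 to 44 of the 44 genes. Kupffer cell markers were present in every library, with Clec4f at a median of 211824 in Chow_EmKCs, 158092 in MCD_EmKCs and 23325 in MCD_MoKCs. Libraries 1 to 3 of MCD_MoKCs stood apart from libraries 4 to 7 in their share of mitochondrial reads, which was 0.534 to 0.729% against 0.244 to 0.359%. That share was 0.511 to 1.05% in Chow_EmKCs and 0.155 to 0.317% in MCD_EmKCs. Counts of called genes are therefore also given for each of these MCD_MoKCs sets, a choice made after the data were seen.

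The promoters of these genes carry shared elements, and 4 are printed because they show the mitotic and the replication layouts in genes that rose. RefSeq windows (GRCm38.p6) from 250 bases before to 50 bases after the annotated start were at hand for 34 of the 44 genes and for 27025 genes in all. The motifs searched, each on both strands, were the CHR (TTTGAA), the CCAAT box bound by NF-Y (CCAAT) and the E2F site in the forms GCGGGAA and GCGCGAA. Below are the 150 bases before the start of Mki67 (chr7:135716380-135716529, minus strand), Top2a (chr11:99024190-99024339, minus strand), Ube2c (chr2:164769779-164769928, plus strand) and Mcm6 (chr1:128359706-128359855, minus strand), 5′ to 3′ on the gene's strand. Capitals mark matches in either orientation, and no printed match overlaps another.
Mki67: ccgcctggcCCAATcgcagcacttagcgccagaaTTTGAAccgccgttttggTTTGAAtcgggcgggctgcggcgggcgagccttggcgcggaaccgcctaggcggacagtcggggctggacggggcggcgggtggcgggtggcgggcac
Top2a: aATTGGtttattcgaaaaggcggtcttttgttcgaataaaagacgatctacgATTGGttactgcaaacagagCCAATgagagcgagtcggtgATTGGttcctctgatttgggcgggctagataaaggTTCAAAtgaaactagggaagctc
Ube2c: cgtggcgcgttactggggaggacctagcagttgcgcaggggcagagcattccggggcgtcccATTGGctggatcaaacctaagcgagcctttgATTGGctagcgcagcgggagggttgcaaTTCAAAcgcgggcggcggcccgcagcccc
Mcm6: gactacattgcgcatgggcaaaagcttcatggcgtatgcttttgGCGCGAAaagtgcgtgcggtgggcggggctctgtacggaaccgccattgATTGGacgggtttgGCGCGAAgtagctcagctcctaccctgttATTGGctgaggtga
Mki67 holds 2 CHR matches and 1 CCAAT box in these bases, Top2a 1 CHR and 4 CCAAT boxes, and Ube2c 1 CHR and 2 CCAAT boxes. Mcm6, a replication gene, holds no CHR but 2 E2F sites and 2 CCAAT boxes. Other genes that rose do not show these layouts in the same 150 bases. Aurka holds 0 CHR matches there, and Rrm2, Mcm5 and Pcna each hold 0 E2F sites. In the full windows, the CHR was found in 17 of 34 genes (50%) against 20.2% of all genes. It was in 14 of 18 mitotic genes (77.8%) but in 1 of 10 replication genes, Mcm2. An E2F site of either form was in 8 of 34 genes (23.5%) against 6.86% of all genes, among them 5 of 10 replication genes (Mcm3, Mcm5, Mcm6, Mcm7 and Rrm1) and 1 of 18 mitotic genes, Hmmr. The CCAAT box was in 28 of 34 genes (82.4%) against 41.1% of all genes. A match is a string of letters and not evidence of binding.

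**Figure D1:**
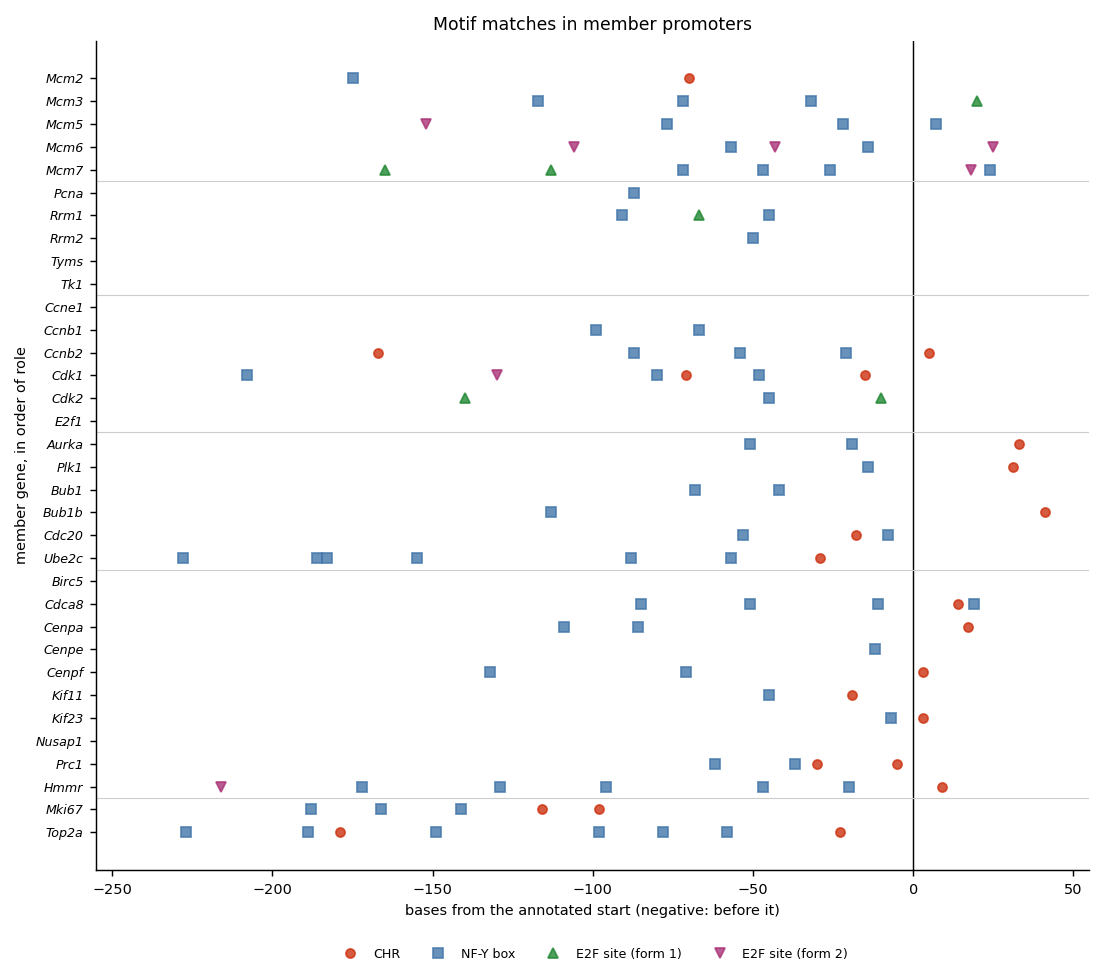
Positions of motif matches in the promoter windows of the 34 genes with a RefSeq entry; the horizontal axis is the distance in bases from the annotated start (negative before it) and each row is a gene, in order of role. Circles are CHR matches, squares CCAAT boxes (labelled NF-Y box), upward triangles the E2F form GCGGGAA and downward triangles the form GCGCGAA, with the circles mostly in the rows of mitotic genes and the triangles mostly in those of replication genes.

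As a first measure, the reads of all 44 genes were summed within each library. They took 0.0520 to 0.0750% of all reads in Chow_EmKCs (median 0.0568%). In MCD_EmKCs they took 0.0476 to 0.0682% (median 0.0564%), and in MCD_MoKCs 0.0731 to 0.0906% (median 0.0816%). Every MCD_MoKCs library lay above every MCD_EmKCs library, while Chow_EmKCs 2, at the top of its group, lay within the MCD_MoKCs range. Bulk RNA cannot tell fewer cells in cycle from less of this RNA in each cell. In 33 of the 44 genes the median over libraries was highest in MCD_MoKCs. It was highest in Chow_EmKCs for Gmnn, Kif23, Mcm3 and Tyms, and in MCD_EmKCs for 7 genes (Bub1b, Cdk2, E2f1, Hmmr, Kif20a, Mcm2 and Tpx2). The same count was not made over all genes, so whether 33 of 44 departs from genes at large was not tested.

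**Figure D2:**
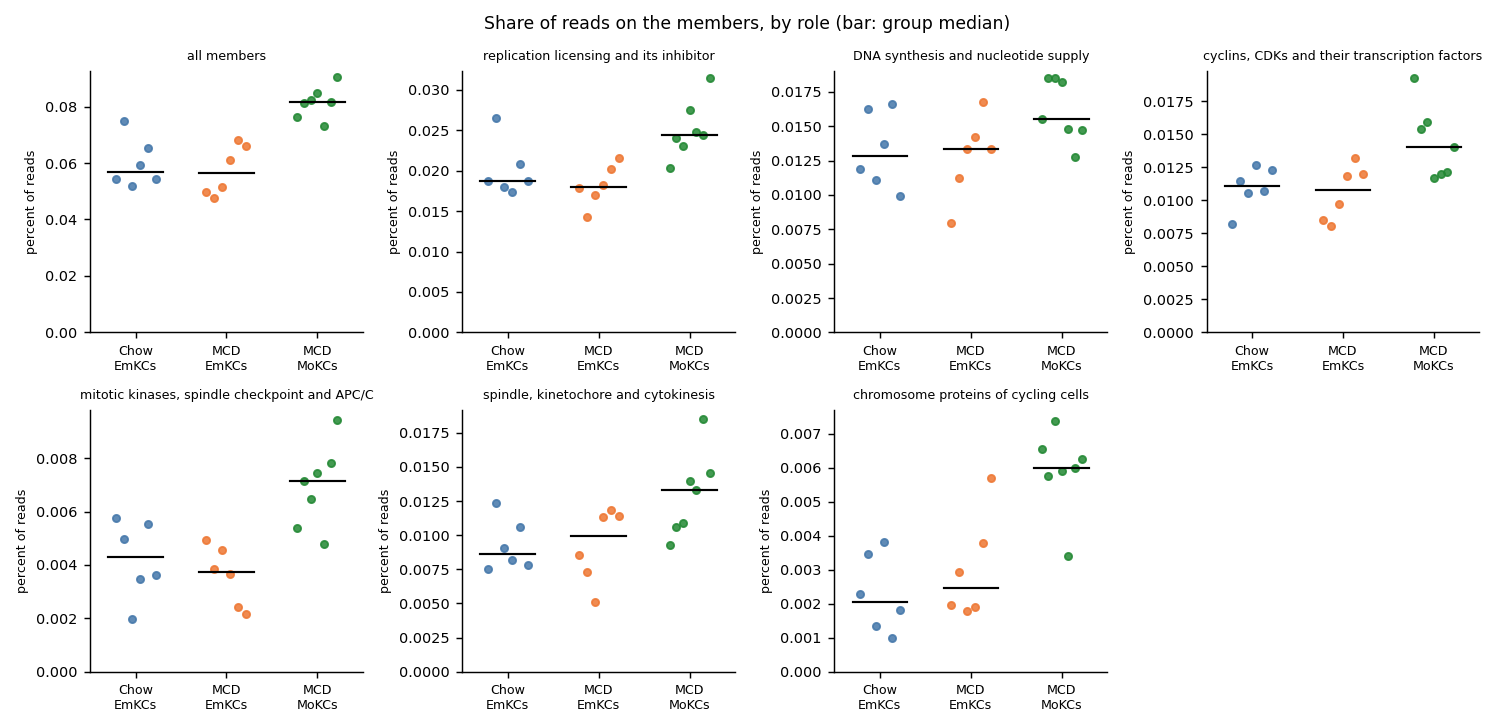
Share of all reads on the 44 genes together and on each of 6 role groups, in percent of reads (vertical axis, from 0), for every library of the 3 groups; points are libraries and bars are group medians. In the first panel the MCD_MoKCs points, 0.0731 to 0.0906%, all lie above the MCD_EmKCs points.

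Markers of other cells also moved with MCD_MoKCs. All 12 T and NK cell genes had reads in that group, and their summed share was 0.00259 to 0.00381% there, against 0.000987 to 0.00215% in Chow_EmKCs, where Ncr1 was at 0, and 0.000269 to 0.00192% in MCD_EmKCs, where Cd8a and Trac were at 0. Of the 10 tested in this list, limma called 4 higher and 1 lower in MCD_MoKCs against Chow_EmKCs. The lower gene was Cd4 (log2 fold change -1.38, limma adjusted p = 0.0333). Against MCD_EmKCs 4 were higher and 0 lower. The dendritic cell share (7 of 7 genes with reads in each group) was 0.00437 to 0.0120% in MCD_MoKCs, 0.00156 to 0.00459% in Chow_EmKCs and 0.00129 to 0.00553% in MCD_EmKCs. For 7 B and plasma cell genes, all with reads and led by Cd79b, it was 0.00222 to 0.00402%, 0.00102 to 0.00323% and 0.000730 to 0.00238% in the same order. The neutrophil share was 0.000406 to 0.0122%, 0.0000995 to 0.000847% and 0.000155 to 0.00112%, with Mpo at 0 throughout and Ngp at 0 in both EmKCs groups, so 7, 6 and 6 of 8 genes had reads. In MCD_MoKCs S100a8 (46.5 to 1035 normalised reads), S100a9 (17.1 to 873) and Retnlg (3.32 to 272) carried most of this. There Ly6g reached 13.8, Ngp 8.89, Elane 0.949 and Camp 0.9. Platelet genes (6 of 6 with reads) took 0.00899 to 0.0245%, 0.00122 to 0.00414% and 0.00463 to 0.00766%, and 1 gene, Pf4, which macrophages can also make, carried most of this. Without Pf4 the platelet share overlapped across the groups, at 0.000171 to 0.00273%, 0.000127 to 0.00099% and 0.0000877 to 0.00152%. Cholangiocyte genes took 0.00511 to 0.0375%, 0.0000166 to 0.000433% and 0.0000576 to 0.00332%, with 5, 5 and 4 of 5 genes read. This share was likewise set by 1 gene, Spp1, also made by macrophages, at 919 to 6917 normalised reads in MCD_MoKCs against 0 to 52.5 in Chow_EmKCs and 1.29 to 546 in MCD_EmKCs. Without Spp1 the share was 0 to 0.00208%, 0.0000166 to 0.00016% and 0 to 0.000745%, with Krt19 at 0 in all MCD_EmKCs libraries and in 5 of 7 MCD_MoKCs libraries. Krt19 had 69.2 normalised reads in MCD_MoKCs 2 and 131 in MCD_MoKCs 5. MCD_MoKCs 5 also had Sox9 at 148, Epcam at 88.2 and Krt7 at 38.5, while Epcam was highest in MCD_EmKCs 6, at 118. The hepatocyte share, with 8 of 8 genes read in each group, was instead highest in Chow_EmKCs, at 0.0216 to 0.0646% against 0.00253 to 0.0154% in MCD_EmKCs and 0.00287 to 0.00639% in MCD_MoKCs. Sinusoidal endothelial genes, 7 of 7 read in each group, took 0.0516 to 0.0625% in Chow_EmKCs, 0.0377 to 0.0628% in MCD_EmKCs and 0.0162 to 0.0512% in MCD_MoKCs. The genes of this list went both ways in MCD_MoKCs, with 3 higher and 3 lower in limma against either EmKCs group. Stab2, Cdh5 and Pecam1 fell in both comparisons and Clec4g and Oit3 rose in both, while Kdr rose against Chow_EmKCs and Dnase1l3 against MCD_EmKCs. Erythroid and stellate cell shares overlapped across all 3 groups. The part of any of these in the cell cycle values was not tested.

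The first comparison asks what the MCD diet did to proliferation genes in resident EmKCs. Mki67 rose and 0 of the 44 genes fell, although at an unadjusted p under 0.05 limma had 2 higher and 3 lower, DESeq2 3 and 3 and edgeR 3 and 1. That is 1 of 44 genes past an adjusted p of 0.05 (limma with Benjamini-Hochberg adjustment), where 4.08% of all genes were called in either direction and 2.5% were called higher. The 44 log2 fold changes had a median of -0.01, with 21 above 0 and 23 below, beside a median of -0.04 over all genes. Of all calls in this comparison 372 were higher and 235 lower, a split that became 245 higher and 281 lower with all libraries scaled to a common total. Within libraries numbered up to 33, and within those numbered from 37, 0 of 44 genes were called by limma (3 against 3 libraries each), with 5 and 10 at an unadjusted p under 0.05. Of all 14875 genes, 179 and 263 were called in these fits.

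The second comparison asks how MoKCs differed from EmKCs within the same diet. Mcm5, Rrm2, Ccna2, Aurka and Top2a rose, and 0 of the 44 genes fell, also at an unadjusted p under 0.05 and in edgeR and DESeq2. These 5 of 44 genes stand beside 10.5% of all genes called in either direction and 5.64% called higher. The median log2 fold change of the 44 was 0.70, with 37 above 0, beside 0.02 over all genes, of which 51.4% were above 0. With MCD_MoKCs libraries 4 to 7 alone 3 genes were called (Cdca8, Plk1 and Prc1), and with libraries 1 to 3 alone 1 was (Ccna2). Within library numbers up to 33 the count was 3 (Rrm2, Ccna2 and Prc1) and from number 37 it was 1 (Aurka). Of all 14875 genes, 1010, 1702, 870 and 565 were called in these fits, in the order given.

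The remaining comparison sets MCD_MoKCs beside Chow_EmKCs, and it shares libraries with both comparisons above. Mcm6, Pcna, Rrm2, Ccna2, Ube2c, Birc5, Stmn1 and Mki67 rose and Kif23 fell. These 9 of 44 genes stand beside 16.8% of all genes called in either direction, and the 8 that rose beside 8.68% called higher and the 1 that fell beside 8.08% called lower. The median log2 fold change was 0.72, with 38 of 44 above 0, beside -0.01 over all genes, of which 49.4% were above 0. With MCD_MoKCs libraries 4 to 7 alone the count was also 9, and with libraries 1 to 3 alone it was 4 (Foxm1, Pcna, Ccna2 and Mki67). It was 2 within library numbers up to 33 (Foxm1 and Mki67) and 5 from number 37 (Mcm6, Mki67, Kif23, Prc1 and Cenpe). Of all 14875 genes, 2093, 2136, 1257 and 1288 were called in these fits, in the order given.

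**Figure D3:**
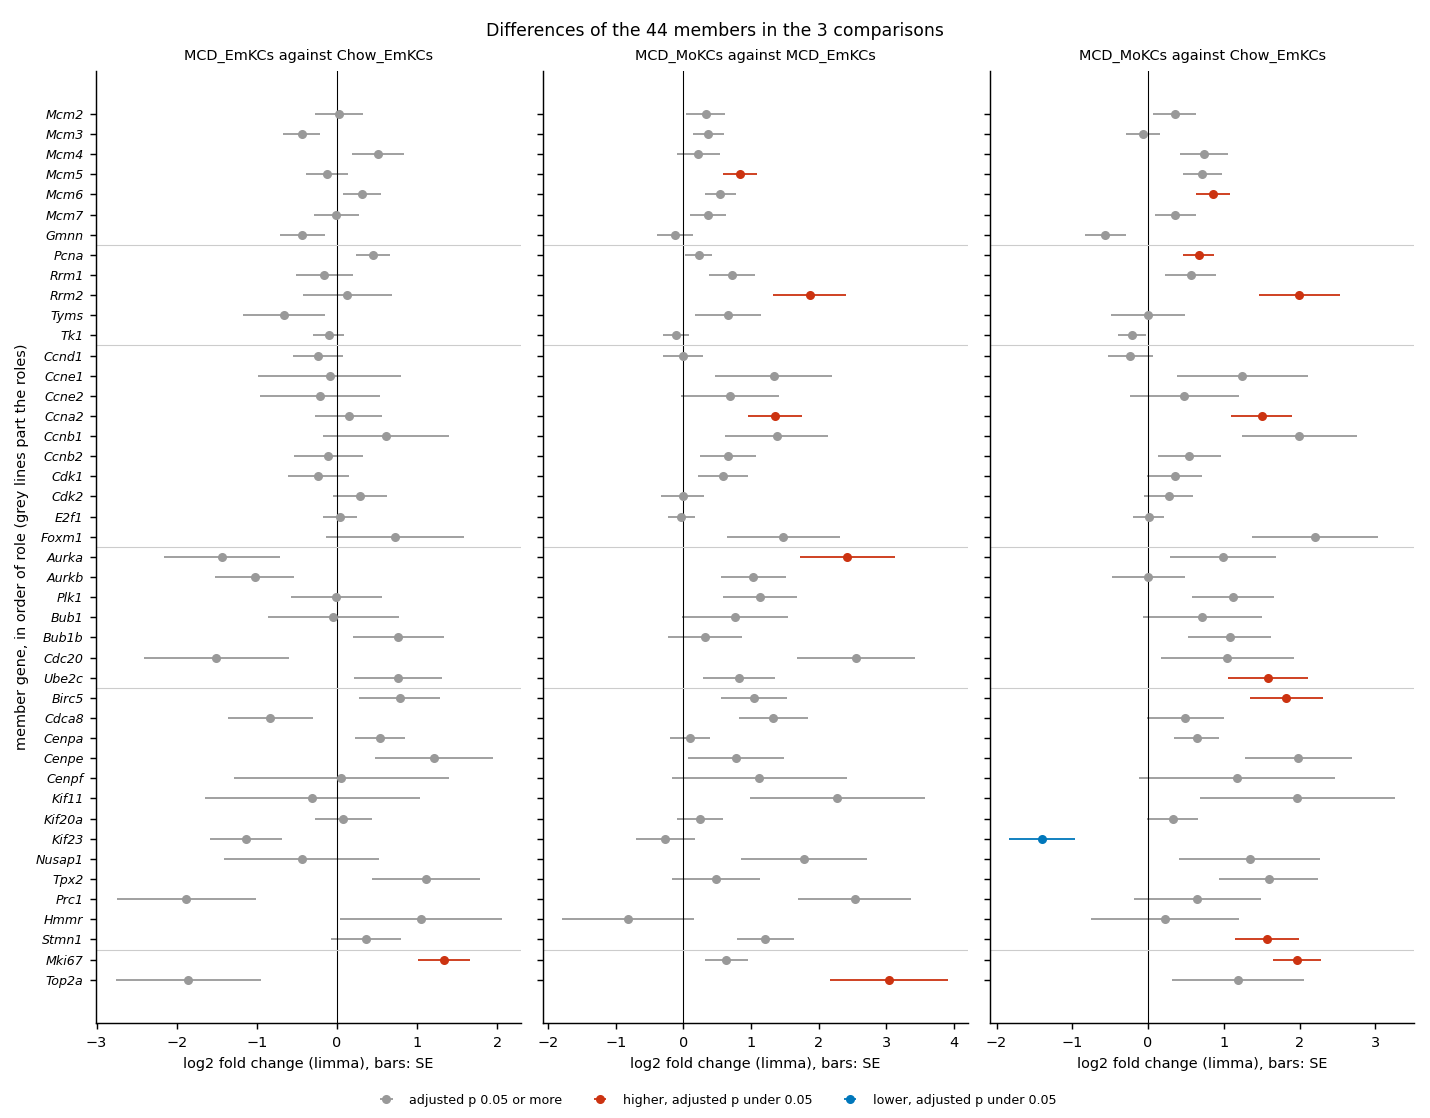
Log2 fold change of each of the 44 genes (rows, in order of role) in the 3 comparisons (panels), with bars of 1 SE from limma on log2 of normalised reads plus 1. Grey points did not pass an adjusted p of 0.05, red points were higher and blue points lower; the points straddle 0 in the first panel (21 above), and lie mostly to its right in the middle panel (37 above) and the last (38 above).

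In order of role, replication licensing comes first. MCM2 to MCM7 form the ring helicase that is loaded on origins in G1 and unwinds DNA in S phase, and geminin (Gmnn) blocks its reloading. Mcm5 (ENSMUSG00000005410, chr8:75109569-75128439, plus strand, positions here and below in mm10) ranged from 220 to 780 normalised reads in Chow_EmKCs (median 473), 280 to 537 in MCD_EmKCs (median 414) and 550 to 990 in MCD_MoKCs (median 713). All 7 MCD_MoKCs libraries were above all MCD_EmKCs libraries, with overlap with Chow_EmKCs. The log2 fold change of Mcm5 against MCD_EmKCs was 0.84 (SE 0.26, limma adjusted p = 0.0336). The call was lost without MCD_EmKCs 3, 5 or 6 or MCD_MoKCs 3, 4 or 5 (adjusted p 0.0542 to 0.0884), with a replicate block (adjusted p = 0.0576) and with the set of library numbers as a term (adjusted p = 0.0501). Mcm6 (ENSMUSG00000026355, chr1:128331590-128359664, minus strand), whose promoter is printed above, ranged from 457 to 773 in Chow_EmKCs (median 526), 388 to 950 in MCD_EmKCs (median 723) and 694 to 1444 in MCD_MoKCs (median 959). Against Chow_EmKCs it rose by 0.85 (SE 0.23, limma adjusted p = 0.00828), and 6 of 7 MCD_MoKCs libraries were above every Chow_EmKCs library. Mcm2 (ENSMUSG00000002870, chr6:88883474-88898780, minus strand) did not separate the groups. It ranged from 312 to 699 in Chow_EmKCs (median 540), 225 to 747 in MCD_EmKCs (median 630) and 453 to 898 in MCD_MoKCs (median 583), and its log2 fold change was 0.02 (SE 0.30) in the first comparison, 0.33 (SE 0.29) in the second and 0.35 (SE 0.29) in the last. Mcm3, Mcm4, Mcm7 and Gmnn were called in no comparison, with log2 fold changes from -0.44 to 0.51 for MCD_EmKCs against Chow_EmKCs and from -0.13 to 0.37 for MCD_MoKCs against MCD_EmKCs. For Gmnn these were -0.43 and -0.13, the 1 negative value of this role in the second comparison.

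DNA synthesis and nucleotide supply was represented by 5 genes. Rrm2 encodes the small subunit of ribonucleotide reductase, which makes deoxynucleotides and is supplied in S phase. Rrm2 (ENSMUSG00000020649, chr12:24708241-24714146, plus strand) ranged from 11.8 to 226 normalised reads in Chow_EmKCs (median 115), 21.99 to 232 in MCD_EmKCs (median 107) and 203 to 466 in MCD_MoKCs (median 380). The medians of both EmKCs groups were close, and 6 of 7 MCD_MoKCs libraries were above every library of either. Against MCD_EmKCs it rose by 1.87 on the log2 scale (SE 0.54, adjusted p = 0.0238 in limma), and against Chow_EmKCs by 2.00 (SE 0.54, adjusted p = 0.00922). The first of these was lost without MCD_EmKCs 1, which was low (adjusted p = 0.0697). Pcna, the sliding clamp of the replicative polymerases (ENSMUSG00000027342, chr2:132249162-132253314, minus strand), ranged from 474 to 803 in Chow_EmKCs (median 629), 568 to 1089 in MCD_EmKCs (median 889) and 600 to 1195 in MCD_MoKCs (median 1071). All 3 groups overlapped, with 6 of 7 MCD_MoKCs libraries above every Chow_EmKCs library and 3 of 7 above every MCD_EmKCs library. Pcna rose by 0.67 in MCD_MoKCs against Chow_EmKCs (SE 0.21, adjusted p = 0.0237 in limma). That call was lost with a common total (adjusted p = 0.0602) and without Chow_EmKCs 4 or 6 or MCD_MoKCs 4 (adjusted p 0.0511 to 0.0655). For MCD_EmKCs against Chow_EmKCs it was 0.45 (SE 0.21, adjusted p = 0.301). Rrm1, the large subunit, Tyms (thymidylate synthase) and Tk1 (thymidine kinase) were called in no comparison. Annotated pseudogene copies of Pcna and Tyms exist and Tk1 shares exon bases with Afmid on the other strand, so reads could be split or shared there. In the other roles and in licensing, Ccnd1, Ccne2, Cdc20, Cdca8, Cdk2, Kif20a, Mcm7, Nusap1, Plk1, Prc1 and Ube2c also overlap an other-strand gene. Foxm1, Mcm7, Stmn1 and Top2a overlap an annotated gene on the same strand.

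Cyclins, their kinases and the factors E2F1 and FOXM1 made up the next 10 genes. Cyclin A2 (Ccna2) drives S phase and entry into mitosis with CDK2 and CDK1. Ccna2 (ENSMUSG00000027715, chr3:36564865-36572150, minus strand) ranged from 92.0 to 153 normalised reads in Chow_EmKCs (median 109), 51.7 to 320 in MCD_EmKCs (median 124) and 122 to 504 in MCD_MoKCs (median 450). MCD_MoKCs 4 and 6 lay at the level of the EmKCs groups and the other 5 libraries above all of them, while MCD_EmKCs 5 stood far above its group. Cyclin A2 transcripts rose in MCD_MoKCs by 1.36 on the log2 scale against MCD_EmKCs (SE 0.40, adjusted p = 0.0284 in limma) and by 1.5 against Chow_EmKCs (SE 0.40, adjusted p = 0.00896). The first was lost without MCD_EmKCs 1 or 4 or MCD_MoKCs 2, 3, 5 or 7 (adjusted p 0.0504 to 0.0796) and with only the 2 groups compared in the fit (adjusted p = 0.0545). Its exons overlap those of Exosc9 on the other strand. Cyclin D1 (Ccnd1), the mitogen-responsive G1 cyclin (ENSMUSG00000070348, chr7:144929931-144939925, minus strand), ranged from 294 to 714 in Chow_EmKCs (median 385), 221 to 503 in MCD_EmKCs (median 353) and 161 to 510 in MCD_MoKCs (median 432). The 3 groups overlapped, and the log2 fold change was -0.23 (SE 0.31) in the first comparison, -0.00 (SE 0.30) in the second and -0.24 (SE 0.30) in the last. The other 8 genes were called in no comparison. Foxm1 had medians of 50.6 (Chow_EmKCs), 102 (MCD_EmKCs) and 292 (MCD_MoKCs), but its MCD_MoKCs libraries ran from 25.2 to 1282 (adjusted p = 0.0747 against Chow_EmKCs). E2f1 was even across groups, with medians of 646, 741 and 697.

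Among mitotic kinases, the spindle checkpoint and the APC/C, the ubiquitin ligase that ends mitosis, Aurka was called in MCD_MoKCs against MCD_EmKCs and Ube2c in MCD_MoKCs against Chow_EmKCs. Each is 1 of 7 genes (14.3%), near the 10.5% and 16.8% of all genes called in these comparisons. Aurka, the kinase that builds spindle poles (ENSMUSG00000027496, chr2:172356190-172370535, minus strand), ranged from 12.9 to 191 normalised reads in Chow_EmKCs (median 94.5), 1.07 to 96.7 in MCD_EmKCs (median 31.5) and 94.8 to 230 in MCD_MoKCs (median 116). MCD_EmKCs 3 alone reached the MCD_MoKCs range, and Chow_EmKCs spanned both. In MCD_MoKCs against MCD_EmKCs, Aurka rose by 2.43 on the log2 scale (SE 0.70, adjusted p = 0.0251 in limma). The call was lost without MCD_EmKCs 2, the lowest library (adjusted p = 0.0601), and in edgeR's quasi-likelihood test (adjusted p = 0.0796). Ube2c, the E2 enzyme of the APC/C (ENSMUSG00000001403, chr2:164769898-164778822, plus strand), ranged from 15.2 to 91.9 in Chow_EmKCs (median 33.8), 37.5 to 104 in MCD_EmKCs (median 63.4) and 49.98 to 266 in MCD_MoKCs (median 98.9). The groups overlapped, with 4 of 7 MCD_MoKCs libraries above every Chow_EmKCs library. Ube2c rose by 1.58 on the log2 scale against Chow_EmKCs (SE 0.53, adjusted p = 0.0378 in limma). The call was lost without Chow_EmKCs 3, 4, 5 or 6 or MCD_MoKCs 1, 4, 6 or 7 (adjusted p 0.0514 to 0.0989) and in edgeR (adjusted p = 0.0877). It was also lost with a replicate block (adjusted p = 0.0715), with the set of library numbers as a term (adjusted p = 0.0571), with a common total (adjusted p = 0.0519) and with only the 2 groups compared (adjusted p = 0.0547). Aurkb, Plk1, Bub1, Bub1b and Cdc20 were called in no comparison. All 7 genes of this role were above 0 in both comparisons of MCD_MoKCs, with a median log2 fold change of 1.03 against MCD_EmKCs and 1.05 against Chow_EmKCs.

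Of 13 genes of the spindle, kinetochore and cytokinesis, Birc5 and Stmn1 rose and Kif23 fell, each in MCD_MoKCs against Chow_EmKCs, where these 3 of 13 (23.1%) stand beside 16.8% of all genes. Birc5 encodes survivin, which guides Aurora B on chromosomes (ENSMUSG00000017716, chr11:117849251-117855743, plus strand). It ranged from 14.01 to 116 normalised reads in Chow_EmKCs (median 72.7), 47.7 to 195 in MCD_EmKCs (median 86.4) and 94.8 to 266 in MCD_MoKCs (median 220). MCD_MoKCs 2 alone lay within the Chow_EmKCs range. The rise against Chow_EmKCs was 1.83 on the log2 scale (SE 0.49, adjusted p = 0.0086 in limma). Stathmin (Stmn1), which frees microtubule ends to disassemble (ENSMUSG00000028832, chr4:134468320-134473843, plus strand), ranged from 22.7 to 143 in Chow_EmKCs (median 85.2), 56.5 to 129 in MCD_EmKCs (median 97.0) and 131 to 418 in MCD_MoKCs (median 204). MCD_MoKCs 1, the lowest, was above every MCD_EmKCs library but below the highest Chow_EmKCs library. Stmn1 rose by 1.57 against Chow_EmKCs (SE 0.42, adjusted p = 0.00927 in limma), and its value of 1.21 against MCD_EmKCs (SE 0.42, adjusted p = 0.0682) did not pass. Kif23, the kinesin of the central spindle that is needed for cytokinesis (ENSMUSG00000032254, chr9:61915905-61946774, minus strand), went the other way. It ranged from 253 to 737 in Chow_EmKCs (median 573), 57.8 to 373 in MCD_EmKCs (median 334) and 68.5 to 378 in MCD_MoKCs (median 221). All 7 MCD_MoKCs libraries were below the Chow_EmKCs median, with overlap at its lower end. It fell by 1.40 on the log2 scale (SE 0.44, adjusted p = 0.0258 in limma), a call lost without Chow_EmKCs 2, 5 or 6 or MCD_MoKCs 5 or 6 (adjusted p 0.0520 to 0.0653) and with a replicate block (adjusted p = 0.0755). The other 10 genes of this role, among them the centromere proteins Cenpa, Cenpe and Cenpf, were called in no comparison. Prc1, which bundles the central spindle to which Kif23 is recruited, had medians of 87.7, 34.8 and 163 in Chow_EmKCs, MCD_EmKCs and MCD_MoKCs, with an adjusted p of 0.0519 for MCD_MoKCs against MCD_EmKCs.

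Mki67 and Top2a encode chromosome proteins of cycling cells, and both are used as markers of proliferation. Ki-67 (Mki67, ENSMUSG00000031004, chr7:135689784-135716361, minus strand) coats mitotic chromosomes. It ranged from 92.7 to 339 normalised reads in Chow_EmKCs (median 190), 265 to 916 in MCD_EmKCs (median 412) and 421 to 976 in MCD_MoKCs (median 697). Every MCD_MoKCs library was above every Chow_EmKCs library, and MCD_EmKCs lay between and overlapped both. In MCD_EmKCs against Chow_EmKCs it rose by 1.33 on the log2 scale (SE 0.33, adjusted p = 0.0161 in limma), with 4 of 6 libraries above every Chow_EmKCs library. That call was lost without MCD_EmKCs 6, the highest library (adjusted p = 0.0521). Against Chow_EmKCs, MCD_MoKCs rose by 1.97 (SE 0.31, adjusted p = 4.23e-05), and the call held in each model that left out 1 library and under the 14 alternatives tried. Between MCD_MoKCs and MCD_EmKCs the value was 0.64 (SE 0.31, adjusted p = 0.225). Topoisomerase II alpha (Top2a, ENSMUSG00000020914, chr11:98992943-99024189, minus strand), which untangles replicated chromosomes, had another pattern. It ranged from 34.8 to 383 in Chow_EmKCs (median 236), 0 to 210 in MCD_EmKCs (median 78.8) and 244 to 623 in MCD_MoKCs (median 351). MCD_EmKCs 3 had no read of it, and every MCD_MoKCs library was above every MCD_EmKCs library. It rose by 3.05 on the log2 scale against MCD_EmKCs (SE 0.87, adjusted p = 0.0276 in limma), where the ratio of group means was 4.32. Its log2 fold change was 2.10 in edgeR and 2.11 in DESeq2. The call was lost without MCD_MoKCs 3 (adjusted p = 0.0519), with a pseudocount of 0.25 (adjusted p = 0.0638) and with only the 2 groups compared (adjusted p = 0.0534). From Chow_EmKCs to MCD_EmKCs, where Mki67 rose, Top2a had a log2 fold change of -1.86 (SE 0.90) that was not called, and the promoters of both hold the CHR printed above.

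**Figure D4:**
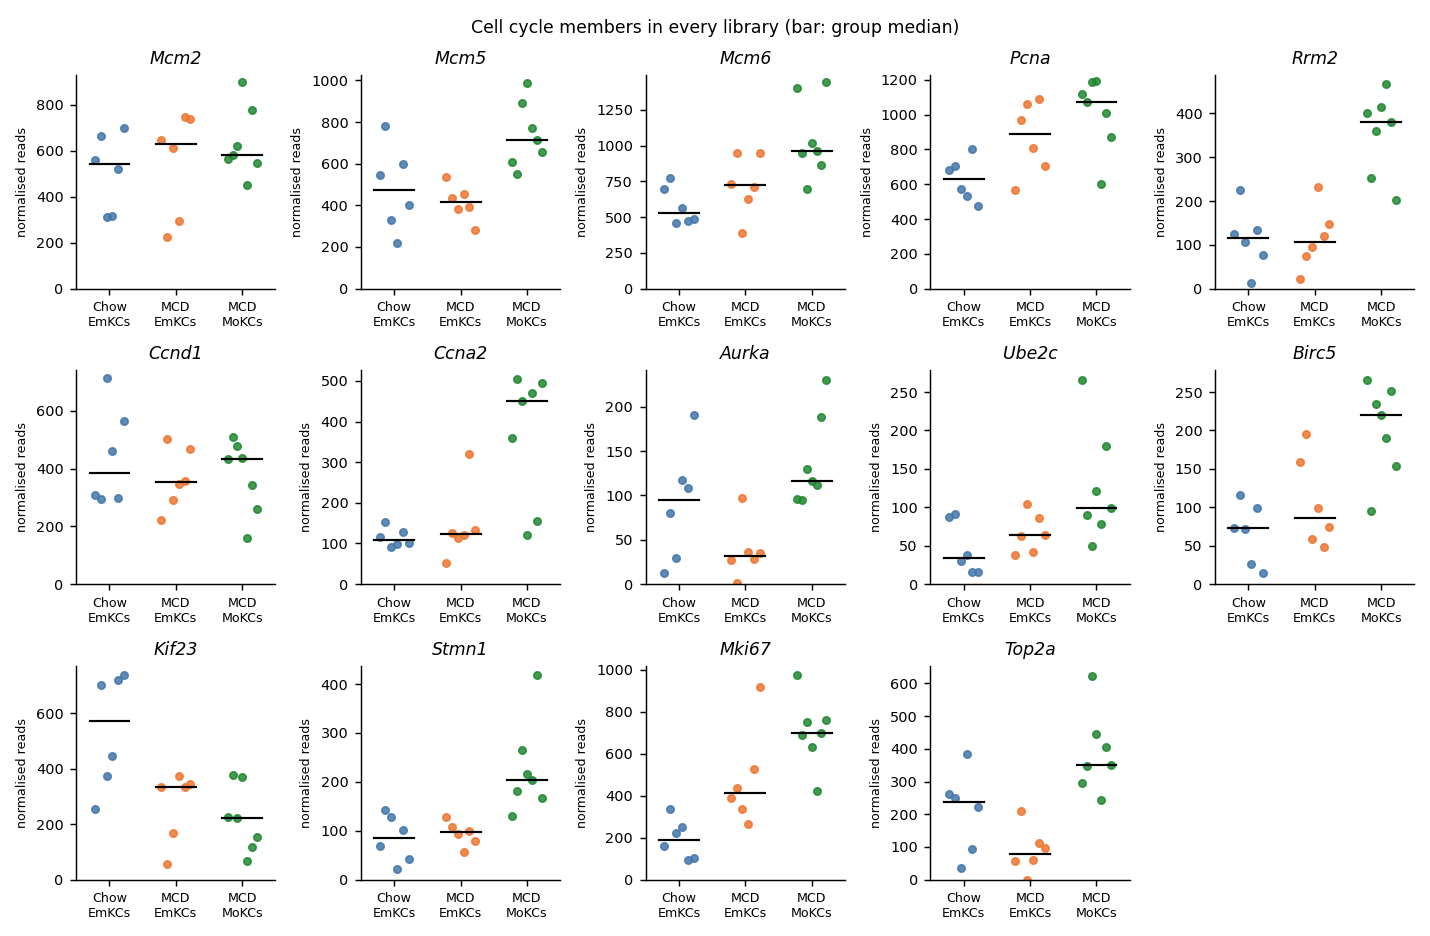
Normalised reads (vertical axes, from 0) in every library of the 3 groups for the 12 genes called in any comparison and for Mcm2 and Ccnd1; points are libraries and bars are group medians. Mki67 steps up from Chow_EmKCs (median 190) to MCD_EmKCs (412) and MCD_MoKCs (697), while the medians of Rrm2, Ccna2 and Top2a are highest in MCD_MoKCs (380, 450 and 351) and that of Kif23 in Chow_EmKCs (573).

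Levels between genes were compared per kilobase of exon. Pcna was the highest of the 44 genes in each group, at medians of 262, 370 and 446 normalised reads per exon kilobase in Chow_EmKCs, MCD_EmKCs and MCD_MoKCs. E2f1, Tk1 and Mcm3 were among the 5 highest in each group, at 205, 200 and 236 in Chow_EmKCs. The lowest was Cenpf, at 1.34, 2.14 and 3.34. Next above it came Bub1, a spindle checkpoint kinase, in both EmKCs groups and the spindle gene Hmmr in MCD_MoKCs. Libraries of a group differed widely in these genes, with a median coefficient of variation over the 44 of 49.1% in Chow_EmKCs, 49.7% in MCD_EmKCs and 41.7% in MCD_MoKCs. No library held the top value of its group for more than 14 of 44 genes, a count reached by Chow_EmKCs 2.

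Beyond the 44 genes, 92 other cell cycle genes were looked at in 6 lists, of which 91 were tested. They cover CDK inhibitors, pocket proteins with other E2F factors and the MuvB complex, other G1 cyclins and kinases, other replication genes, other mitotic genes, and factors that restrain growth or govern macrophage self-renewal. For MCD_EmKCs against Chow_EmKCs 4 rose and 2 fell, which is 6.59% of the 91 beside 4.08% of all genes. For MCD_MoKCs against MCD_EmKCs 5 rose and 3 fell, or 8.79% beside 10.5%. Against Chow_EmKCs 16 rose and 4 fell, or 21.98% beside 16.8%. Those that rose include 4 of 19 replication genes (21.1%) and 6 of 35 mitotic genes (17.1%), beside 8.68% of all genes called higher. The named genes below are those with the smallest p in each comparison, up to 6, and both CIP/KIP inhibitors Cdkn1a and Cdkn1b.

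Cdkn1a encodes p21, which binds and blocks cyclin-CDK complexes and is induced by p53. It ranged from 448 to 990 normalised reads in Chow_EmKCs (median 694), 1053 to 1498 in MCD_EmKCs (median 1360) and 2476 to 4251 in MCD_MoKCs (median 3093). The 3 groups did not overlap. On the log2 scale it rose by 0.97 (SE 0.20, adjusted p = 0.00357 in limma) in the first comparison, 1.28 (SE 0.19, adjusted p = 3.05e-05) in the second and 2.25 (SE 0.19, adjusted p = 1.64e-09) in the last. It was highest in MCD_MoKCs, the group in which 33 of the 44 genes also had their highest median, a count not made over all genes. Its relative Cdkn1b (p27) was called in none, with differences of -0.20 (SE 0.45), -0.37 (SE 0.43) and -0.57 (SE 0.43) on that scale.

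Cyclin D2 (Ccnd2), a partner of CDK4 and CDK6, ranged from 37.4 to 148 normalised reads in Chow_EmKCs (median 89.9), 31.2 to 176 in MCD_EmKCs (median 58.0) and 404 to 1080 in MCD_MoKCs (median 608). MCD_MoKCs libraries were above all others, with a log2 fold change of 3.37 against MCD_EmKCs (SE 0.42, adjusted p = 2.16e-06 in limma) and 2.96 (SE 0.42, adjusted p = 7.26e-06) against Chow_EmKCs. So among D-type cyclins Ccnd2 rose while Ccnd1 was called nowhere. Cyclin D3 (Ccnd3) fell by 0.71 (SE 0.19, limma adjusted p = 0.0301) in MCD_EmKCs against Chow_EmKCs. That call was lost without any 1 library other than Chow_EmKCs 1, 4 or 6 or MCD_EmKCs 2 (adjusted p up to 0.0810), and with a replicate block (adjusted p = 0.0577). Cdk6 rose by 1.21 (SE 0.33, adjusted p = 0.0348) there, lost without any 1 library other than Chow_EmKCs 2 or MCD_EmKCs 3 or 4 (adjusted p 0.0553 to 0.0888), without the filter on low values (adjusted p = 0.0555) and with a common total (adjusted p = 0.0612). Cdk6 was also called higher in MCD_MoKCs against Chow_EmKCs, a call lost in 0 of 13 fits that left out 1 library.

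In the same comparison Wee1, the kinase that holds CDK1 inactive, had log2 fold change 1.78 (SE 0.40, limma adjusted p = 0.0093) and Myc, a growth-promoting transcription factor, 1.03 (SE 0.22, adjusted p = 0.00578). For both, every MCD_EmKCs library was above every Chow_EmKCs library. Both were also called higher in MCD_MoKCs against Chow_EmKCs. Of 13 fits that left out 1 library, 0 lost that call for Myc and 9 for Wee1. E2f8, an E2F factor that represses replication genes late in S phase, ranged from 0 to 67.3 normalised reads in Chow_EmKCs, 0 to 34.1 in MCD_EmKCs and 6.30 to 140 in MCD_MoKCs. The rise of E2f8 in MCD_MoKCs against MCD_EmKCs was 4.10 on the log2 scale (SE 1.05, adjusted p = 0.0101 in limma), lost in edgeR's test (adjusted p = 0.0699). MCD_MoKCs overlapped Chow_EmKCs in E2f8, which was not called between them. The histone chaperone Asf1b also rose in MCD_MoKCs against MCD_EmKCs, by 1.67 (SE 0.44, adjusted p = 0.0137 in limma). Against Chow_EmKCs, MCD_MoKCs were higher in Pkmyt1, another CDK1-inhibiting kinase (1.54, SE 0.30, limma adjusted p = 0.000416), and in the spindle protein Dlgap5 (3.34, SE 0.72, adjusted p = 0.00145). Securin (Pttg1), which restrains sister chromatid separation, fell by 1.18 (SE 0.22, adjusted p = 0.000254), with no overlap between the groups.

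Csf1r, the receptor for the growth factor that keeps macrophages alive and dividing, fell in each comparison. It ranged from 89605 to 106769 normalised reads in Chow_EmKCs, 68518 to 90881 in MCD_EmKCs and 47804 to 67043 in MCD_MoKCs. MCD_MoKCs lay below all other libraries. On the log2 scale it fell by 0.34 (SE 0.10, adjusted p = 0.0462 in limma) in the first comparison, by 0.52 (SE 0.09, adjusted p = 0.000347) in the second and by 0.86 (SE 0.09, adjusted p = 1.36e-07) in the last. The first was lost without any 1 library other than Chow_EmKCs 3 or MCD_EmKCs 1 (adjusted p 0.0505 to 0.119) and in edgeR (adjusted p = 0.0619), DESeq2 (adjusted p = 0.0532), a fit with only the 2 groups compared (adjusted p = 0.0653) and one with a replicate block (adjusted p = 0.0563). Klf2, a factor of quiescence, fell by 1.02 (SE 0.20, limma adjusted p = 0.0012) in MCD_MoKCs against MCD_EmKCs, with no overlap. Klf2 was also called lower against Chow_EmKCs, a call lost in 0 of 13 fits that left out 1 library. Csf1r, Ccnd3, Pkmyt1, Cdkn1a, Ccnd2, Cdk6 and E2f8 each share exon bases with an annotated gene on the other strand. No source used here says whether the counting used strand.

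**Figure D5:**
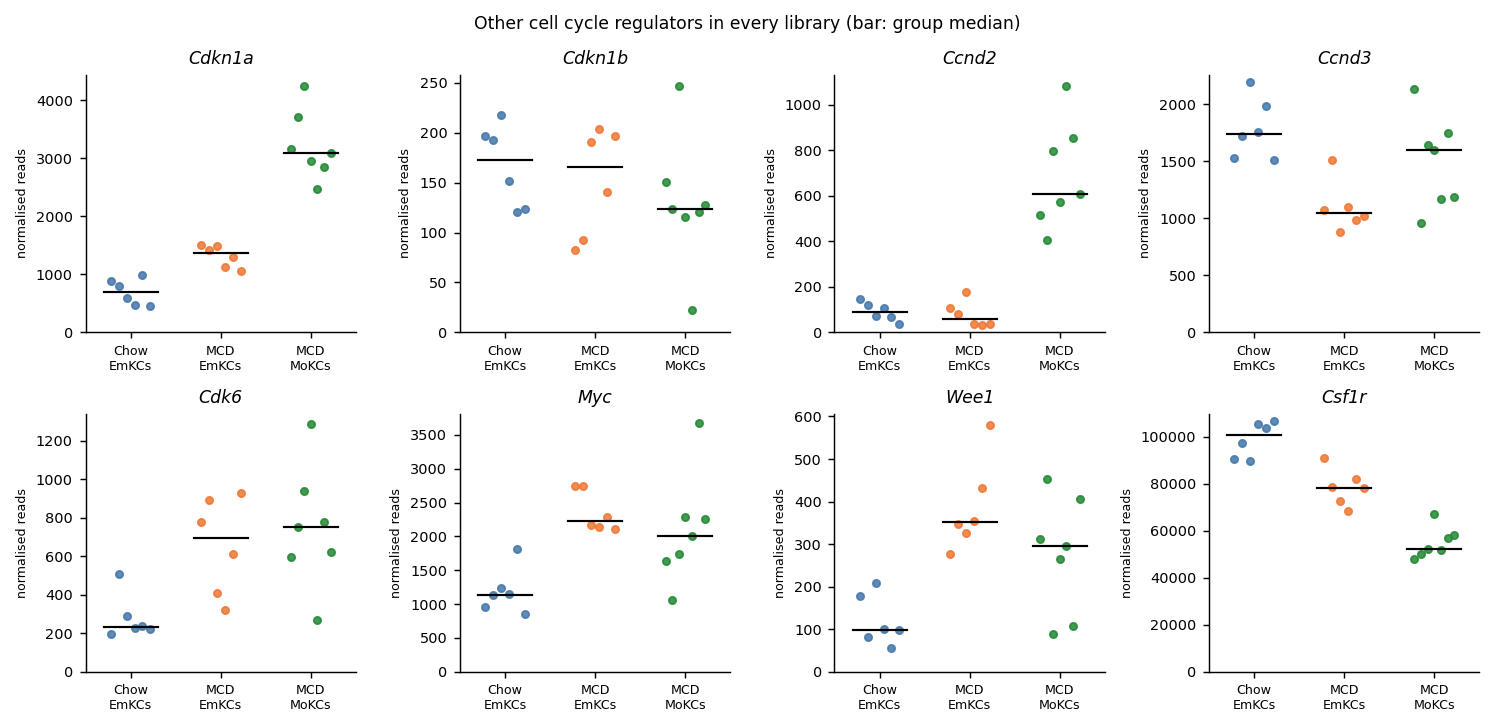
Normalised reads (vertical axes, from 0) of 8 other cell cycle regulators in every library of the 3 groups; points are libraries and bars are group medians. Cdkn1a steps up over the 3 groups (medians 694, 1360 and 3093), Ccnd2 is high in MCD_MoKCs (median 608) and Csf1r steps down.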

How the data were processed

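Per the labels, RNA of cells sorted from collagenase-digested livers was amplified by SMART-seq for Illumina sequencing. The authors deposited 1 table of signal values, namely read numbers scaled by 1 factor for each library: within each library 100% of values were whole multiples of 1 step within 0.001, so whole reads could be recovered. STAR, DESeq2 and mm10 appear in the submitters' processing notes, without versions; the gene annotation and counting tool are not stated there. Of 33919 identifiers, 29062 matched a symbol and 4857 did not. Total reads ranged from 11642240 to 30983487, and without molecular identifiers the spread between libraries, not counting error, gave the precision.

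The main test was limma 3.58.1 (R 4.3.3) on log2(value + 1) with trend and robust options, on genes with a value of 10 or more in 6 or more of the 19 libraries, with 1 mean per group, a threshold of 0.05 and Benjamini-Hochberg adjustment over the 14875 genes that entered. Fold changes are on the log2(value + 1) scale: the added 1 shrinks the change of low genes, but a mean of log values also gives single low libraries more weight than a mean of reads does, and for Top2a, Aurka and Rrm2 against MCD_EmKCs edgeR and DESeq2 gave smaller fold changes. Alternatives were edgeR 4.0.16 (quasi-likelihood, TMM) and DESeq2 1.42.0 on recovered reads, pseudocounts of 4 and 0.25, no filter and a filter of 50, a common total, only the 2 groups compared, a replicate block, library numbers as a term or as separate sets (17 to 33 and 37 to 48), and leaving out each library. The limma, edgeR and DESeq2 steps were tested on simulated data. Groups came from sample titles. Named genes were all members called in any comparison, Mki67, Pcna, Ccnd1 and Mcm2, and per comparison up to 6 pathway genes with the smallest p among those called, with Cdkn1a and Cdkn1b always. Of 93 pathway entries 92 were in the table. The members and lists were chosen with earlier results of these data known. Gene positions and exon lengths are from GENCODE M21 (GRCm38), and promoters from RefSeq (GRCm38.p6). Motif shares take every gene with a promoter entry, and exon overlap with other genes was read from the annotation.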

Additional observations from a re-analysis of the deposited data

Results flagged for a closer look

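In groups of 6 or 7 libraries, a value was singled out where its gap to the nearest other library took an unusually large part of the group's range (Dixon's test at 95%). Over 87 tests of 1 gene in 1 group, chance alone would single out about 1 in 20, and 6 were found. Among the 44 genes, Aurka in MCD_EmKCs 3 had 96.73 normalised reads, where the other 5 libraries had 1.071 to 36.16. Ccna2 in MCD_EmKCs 5 had 320.4, where the others had 51.75 to 131.5. Both values lie on the side of the MCD_MoKCs libraries. E2f8 was high in the same library as Ccna2, MCD_EmKCs 5, at 34.09 against 0 to 8.567 in the others. Ccnd3 in MCD_EmKCs 2 had 1513 against 883.1 to 1099. In Chow_EmKCs 2, which also held the highest value of its group for 14 of the 44 genes, Cdk6 had 508.3 against 195.9 to 290.9 and Dlgap5 had 78.82 against 2.335 to 28.7.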

How the results depend on the processing

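The number of the 44 genes called was 1 for MCD_EmKCs against Chow_EmKCs, 5 for MCD_MoKCs against MCD_EmKCs and 9 for MCD_MoKCs against Chow_EmKCs. Within library numbers up to 33 these became 0, 3 and 2, and within numbers from 37 they became 0, 1 and 5, on 3 Chow_EmKCs, 3 MCD_EmKCs and 5 or 2 MCD_MoKCs libraries. With MCD_MoKCs libraries 4 to 7 alone they were 3 and 9, and with libraries 1 to 3 alone 1 and 4, a split chosen after the data were seen. Leaving out 1 library gave 0 to 2 (0 without MCD_EmKCs 6, and 2 without MCD_EmKCs 3, where Tpx2 was added), 3 to 6 (3 without MCD_MoKCs 5, 6 without MCD_MoKCs 1) and 6 to 11. Each of these fits held fewer samples than the main fit. Whether sample number or another difference changed the counts was not tested. edgeR gave 1, 4 and 8, beside 554, 1325 and 2086 of all 14875 genes. DESeq2 gave 1, 7 and 13, beside 904, 1846 and 2588. No called gene changed direction under any alternative run.

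Over all genes, the calls fell from 607, 1568 and 2493 to 179, 870 and 1257 within numbers up to 33 and to 263, 565 and 1288 from number 37. With MCD_MoKCs libraries 4 to 7 alone 1010 genes were called against MCD_EmKCs and 2093 against Chow_EmKCs. With libraries 1 to 3 alone these were 1702, above the 1568 of the main fit, and 2136. Leaving out 1 library gave 468 to 602, 1288 to 1596 and 2193 to 2456 in the 3 comparisons.

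The titles give the groups shared replicate numbers. With that number as a replicate block 1, 4 and 7 of the 44 genes were called, beside 608, 1658 and 2474 of all 14875. The pairing check gave correlations of same-numbered deviations of -0.0743 to 0.0759. In 7 of 18 checks a sample matched best with its own number, more often than an even pick among 6 libraries would give. The check does not settle whether samples were paired, and the main fit took them as unpaired.

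Many of the 44 genes had few reads, with median coefficients of variation of 41.7 to 49.7% within groups, so a gene that was not called is not shown to be equal between groups.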
